A study of Mus musculus with 4 samples.

Results

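The 32 genes described here are known as imprinted in mouse. In at least some tissues or transcript forms, they are transcribed mainly from the copy inherited from 1 parent. Whether this holds in the cells studied here was not measured. The genes were chosen by name, as members of 15 imprinted clusters, with earlier results of these data known. All 32 were found in the RefSeq gene table of the mm10 assembly (Nespas under its current symbol Gnasas1). A CTCF region was assigned to them when its summit lay within 20 kb of a member gene span, which gave 34 of the 20043 regions in the control list and 29 of the 16128 in the list labelled CTCF knockout. Imprinting rests on control regions whose DNA is methylated on the copy from 1 parent only. CTCF, a zinc-finger protein that binds insulators and loop borders, is known for its part at H19 and Igf2: it binds the unmethylated maternal control region and keeps Igf2 apart from enhancers beyond H19. Imprinted genes are also known for their control of growth.

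The measurement was ChIP-seq, in which DNA bound by CTCF is pulled down with an antibody and sequenced. The cells were isolated left-ventricular cardiac myocytes of the C57BL/6 strain. The control library came from cells of 3 control hearts, pooled, and the other from pooled cells of 3 hearts with the genotype CTCF_knockout. Each genotype also had an input library, which was not analysed here. The sources used here give no age, sex or means of deleting Ctcf, and the purity of the myocytes cannot be checked in lists of bound regions. With 1 ChIP library per genotype there was no replicate, no test between genotypes was possible, and every difference below compares 2 libraries. The second library is called by its label because the lists do not measure how much CTCF was lost. The lists do not tell the maternal from the paternal copy.

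Sequence was at hand only for promoter windows, which run from 250 bases before to 50 bases after an annotated start (RefSeq, GRCm38.p6, the assembly called mm10). Of the members, 26 had at least 1 such window (41 windows in all). Control regions touched 2 of these 41, at Commd1 and Copg2, which is 4.88% of them against 5.63% of all 32851 windows. A control region near Cdkn1c also covered the window of Gm33663, a neighbouring gene. These 3 windows are shown because they are the promoter sequences that control regions near the members touched. They were searched on both strands for the 8-letter core of the CTCF motif, written here as C or T followed by AGAGGGC or AGATGGC or AGGGGGC or AGGTGGC. Capitals mark each match, and all 3 windows are on the minus strand. The first is at chr7:143466449-143466748, the second at chr11:22982235-22982534 and the last at chr6:30896745-30897044.
Gm33663: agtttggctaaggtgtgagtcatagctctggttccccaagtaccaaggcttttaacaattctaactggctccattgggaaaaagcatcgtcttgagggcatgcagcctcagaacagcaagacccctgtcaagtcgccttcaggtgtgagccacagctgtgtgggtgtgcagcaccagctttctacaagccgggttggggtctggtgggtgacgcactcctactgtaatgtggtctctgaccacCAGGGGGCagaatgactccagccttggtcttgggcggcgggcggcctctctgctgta
Commd1: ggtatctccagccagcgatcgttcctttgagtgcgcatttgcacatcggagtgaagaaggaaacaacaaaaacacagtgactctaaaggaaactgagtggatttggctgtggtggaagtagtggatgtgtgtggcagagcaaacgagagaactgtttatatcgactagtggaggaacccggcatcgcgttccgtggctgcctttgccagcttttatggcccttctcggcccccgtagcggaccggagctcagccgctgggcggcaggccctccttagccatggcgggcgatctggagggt
Copg2: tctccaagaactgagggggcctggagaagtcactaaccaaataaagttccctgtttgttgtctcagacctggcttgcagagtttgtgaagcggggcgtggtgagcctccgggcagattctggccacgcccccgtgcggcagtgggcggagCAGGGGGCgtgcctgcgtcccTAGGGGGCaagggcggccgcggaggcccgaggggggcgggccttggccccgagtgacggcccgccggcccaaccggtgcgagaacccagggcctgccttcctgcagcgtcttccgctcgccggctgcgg

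In the Gm33663 window the match begins at base 244, counted from the 5′ end, and the summits of the control and labelled-knockout regions lie at bases 268 and 222. The Commd1 window lies wholly inside a control region, with the control summit at base 198 and the labelled-knockout summit at base 237, and these letters hold no match. In the Copg2 window the matches begin at bases 151 and 172, but the control region covers only bases 265 to 300 of it. A match was found in 12.0% of all promoter windows, in 35.2% of those touched by a control region and in 12 of the 41 member windows (29.3%, some of which overlap each other). Most of these member windows had no region. For example, the promoter of Kcnq1ot1 held a match, while its nearest control region lay 59.1 kb from the gene.

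In the control library, 23 of the 32 members (71.9%) had a CTCF region within 20 kb, against 53.8% of all protein-coding and long non-coding genes. The members are longer than other genes, with a median span of 34.5 kb against 12.8 kb. Per Mb of gene span with its 20 kb margins, the density was 11.4 control regions at the members and 10.6 over all genes. In the library labelled knockout, 19 members (59.4%) had a region, against 47.9% of all genes, and the densities were 9.75 and 8.51 per Mb. The members had regions at close to the density of other genes in both libraries. Of the control regions, 17 lay within a member's span and 17 outside.

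Of the 34 control regions, 24 had an overlap of at least 1 bp with a labelled-knockout region and are called shared (70.6%, Wilson 95% interval 53.8 to 83.2). Over the whole control list the share was 69.0%, inside this interval. The authors' fold enrichment had a median of 6.71 at the members and 6.98 over the control list. With the control list divided into 10 equal bins of fold enrichment, regions in the same bins as the members' regions were shared at 62.0% on average, again inside the interval. The other 10 are called control-only, a word for the calls alone, since binding below the calling threshold is not listed. In the reverse direction, 5 of the 29 labelled-knockout regions overlapped no control region (17.2%, interval 7.598 to 34.5), against 14.2% of that whole list. All intervals cover counting error only.

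The clusters held from 0 to 7 control regions each, and a cluster with only 1 region is either all shared or not shared at all. Differences between clusters were not tested. All control regions were shared in 6 clusters (those of Cdkn1c and Kcnq1ot1, of Snrpn, of Dlk1 and Meg3, of Plagl1, of Nnat, and of Gnas). In 5 clusters some were shared and some not, in 3 clusters none was shared (Peg10, Mest and Igf2r), and the Rasgrf1 cluster had no region in either list. Of the 34 control regions, 12 lay on chromosome 7, which carries 4 of the clusters, and 11 on chromosome 11, which carries 2. The plot of region counts by cluster gives these numbers.

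**Figure D1:**
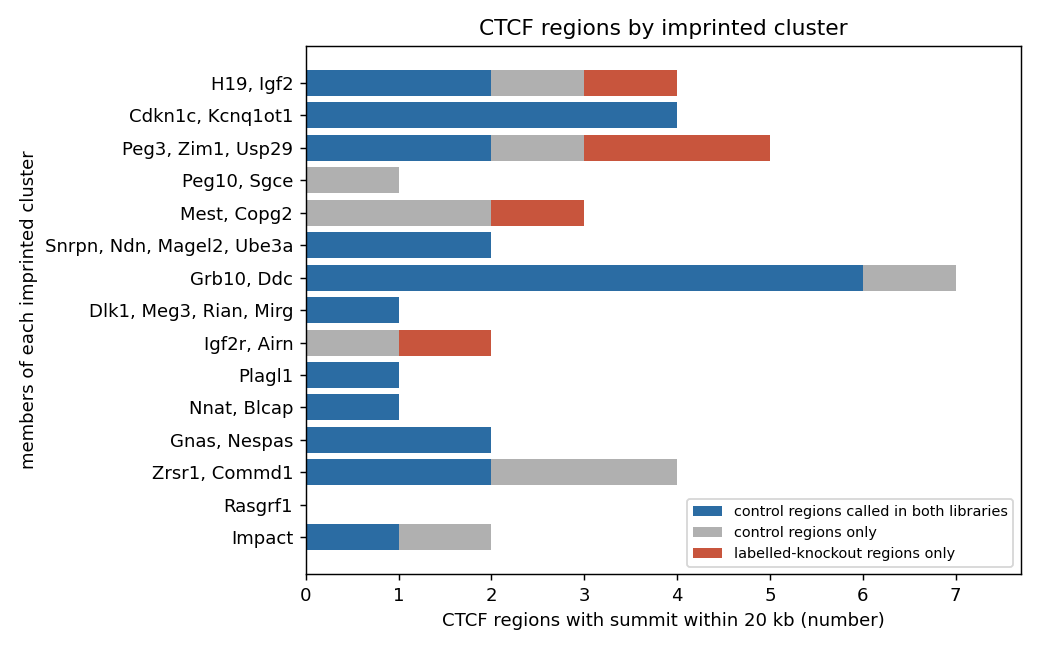
Number of CTCF regions with a summit within 20 kb of the members of each imprinted cluster. Bars stack control regions called in both libraries, control regions without a labelled-knockout region, and labelled-knockout regions without a control region; the Ddc and Grb10 cluster holds the most control regions, 7, and Rasgrf1 none.

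For each region the authors' lists give a fold enrichment, the reads at the summit relative to a local background. The lists do not tell whether that background came from the ChIP or the input library. The fold is the authors' value and is compared only within its list. Where a shared region has 2 values, the first is from the control list and no direction between the lists is implied. The pileup, the number of reads covering the summit, was recovered from the fold and p-value. Local backgrounds went down to 1.006 reads in the control list and to 0.851 reads in the other, a ratio of 0.846. This ratio mixes read number with fragment length.

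The region with the highest fold at any member, in both lists, lay beside Cdkn1c, which encodes p57, an inhibitor of cyclin-dependent kinases that restrains growth and is active on the maternal copy. All 4 control regions there were beyond its higher-coordinate end, and all 4 were shared. The strongest (chr7:143470029-143470296, 9.09 kb from the gene) had a fold of 13.7 and a pileup of 29 reads in the control list. In the list labelled knockout the same place had a fold of 15.6 and 31 reads. These values stood at the 94.5th and 97.8th percentiles of their lists, and the summits were 1 bp apart. Of control regions in the same bin of fold enrichment, 99.0% were shared. The region over the Gm33663 promoter (chr7:143466164-143466697) had control and labelled-knockout folds of 8.04 and 10.8 and pileups of 24 and 19 reads. The one nearest to Cdkn1c (chr7:143463922-143464140, 2.95 kb away) had folds of 7.73 and 10.8 and pileups of 21 and 19 reads. The last, 19.6 kb from the gene and just inside the 20 kb limit, had folds of 5.04 and 6.83. The nearest control region outside that limit at any member was 20.5 kb from Airn, with a fold of 5.42, and was control-only. Kcnq1ot1, the paternal non-coding RNA that silences Cdkn1c and its neighbours in cis, had no region in either list, the nearest being 59.1 kb away in both.

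At H19, a maternally expressed non-coding RNA, and Igf2, a paternally expressed fetal growth factor, 2 of 3 control regions were shared. Both regions near H19 lay on the side that faces Igf2. The first (chr7:142580621-142580842, 2.61 kb from the gene) had a fold of 6.75 and 13 reads in the control list, and 5.94 and 10 reads in the other. It stood at the 45.4th percentile of control folds, so it was an ordinary region in this library. Its summits in the 2 lists were 180 bp apart, the widest shift among the 24 shared regions, whose median was 40.5 bp. With summits within 100 bp in place of overlap it was not shared. The second (chr7:142581670-142582033, 3.63 kb from H19) was control-only, with a fold of 3.87, a pileup of 10 reads and a −log10 q of 2.54. It was the weakest control-only region at the members. The library labelled knockout held a further region on this side without a control region (chr7:142580271-142580412, fold 5.05, 12 reads), 208 bp from the nearest control region. The H19 side of the domain thus held 2 regions in each list, of which 1 pair overlapped. The region upstream of Igf2 (chr7:142672199-142672418, 5.48 kb from the gene) was shared, with folds of 7.75 and 6.34 and pileups of 19 and 12 reads. Outside the 20 kb limit stronger shared regions were listed. On the side facing Igf2, a region 32.6 kb from H19 had a control fold of 9.95. On the side away from Igf2, regions 37.4 and 42.4 kb from H19 had control folds of 10.97 and 17.04.

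Ddc and Grb10 held the most regions of any cluster. Ddc encodes the decarboxylase that makes dopamine and serotonin and has a paternally expressed form in the heart; Grb10 encodes an adaptor that restrains growth signalling from the insulin receptor. All 4 control regions at Ddc were shared. Within Ddc, the region at chr11:11820298-11820550 had a control fold of 8.97 and 17 reads, and 7.02 and 12 reads in the other list. Downstream of Ddc, the region at chr11:11812092-11812414 had folds of 8.76 and 10.8 and pileups of 17 and 19 reads. The weakest shared pileup at any member was also here, with 7 reads in the library labelled knockout and 13 in the control (chr11:11808617-11808893). In Grb10, 2 of 3 control regions were shared. The region at chr11:11973433-11973642 had folds of 7.36 and 12.6 and pileups of 18 and 23 reads. The control-only region at chr11:11974993-11975193, 1.32 kb from the nearest labelled-knockout region, had a control fold of 5.81 and 14 reads, the highest pileup of a control-only region at the members.

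**Figure D2:**
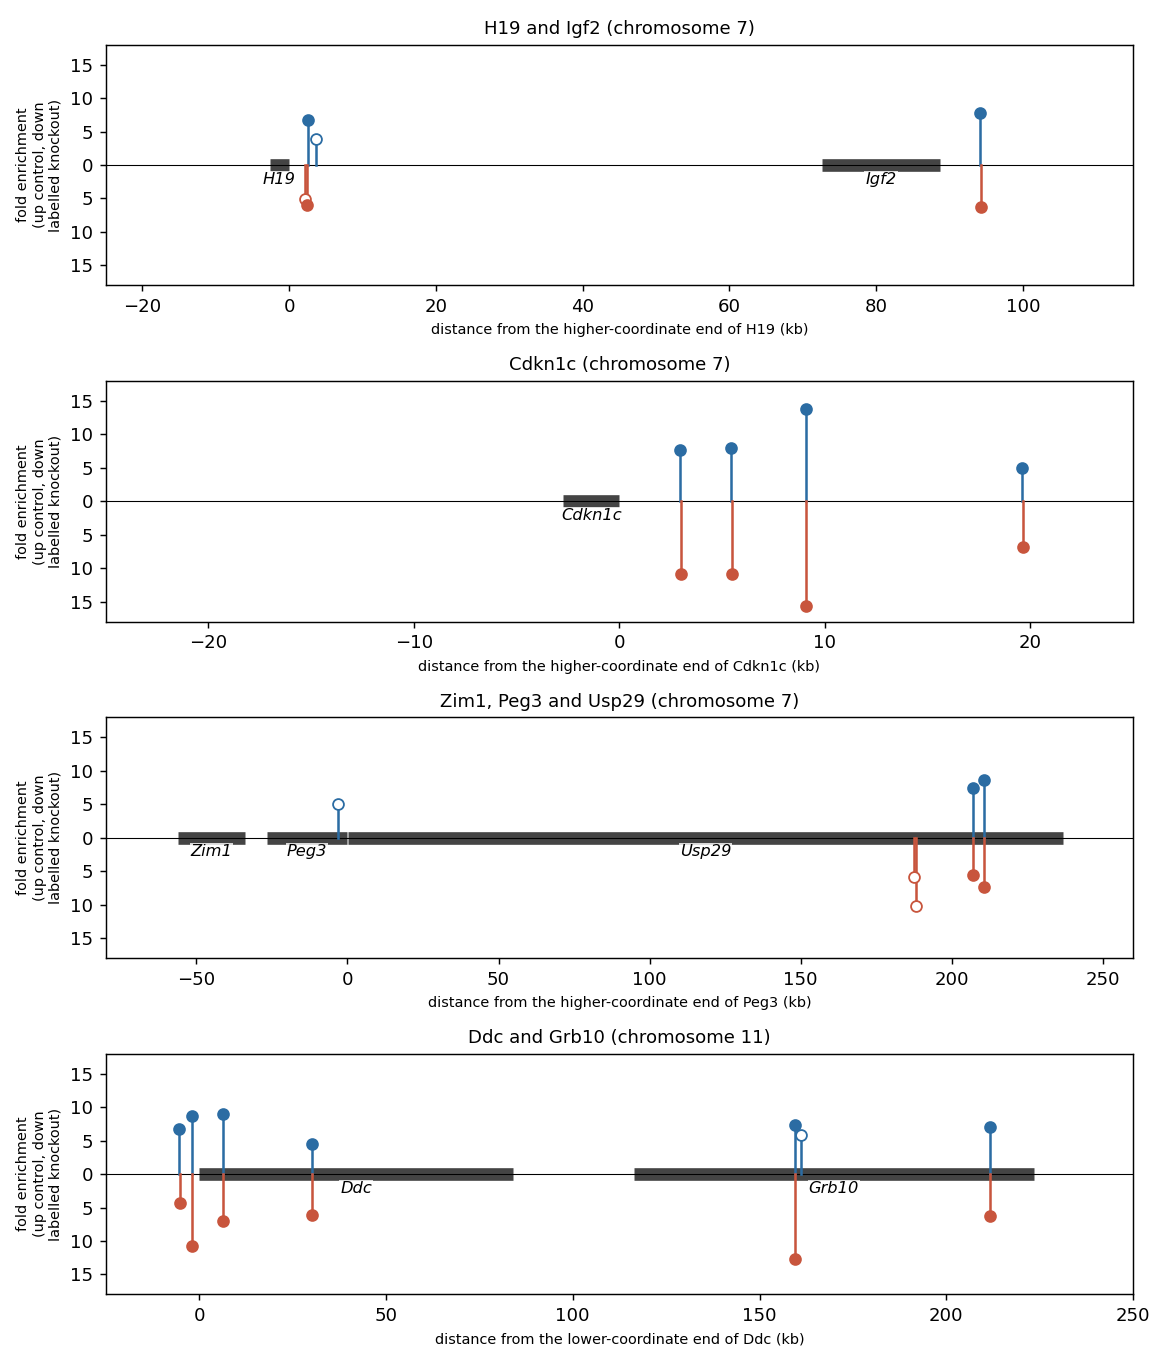
Regions along 4 imprinted loci, with distance in kb from an end of the named gene on the horizontal axis and the authors' fold enrichment on the vertical axis, control upward and labelled knockout downward. Only regions with a summit within 20 kb of a member are drawn. The shared region 32.6 kb from H19, with a control fold of 9.95, is therefore missing between H19 and Igf2. Grey bars are gene spans, filled circles are regions called in both libraries and open circles regions called in 1 list only; Cdkn1c has 4 filled pairs, and Usp29 has 2 open circles in the library labelled knockout.

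Gnas encodes the stimulatory G protein subunit that couples receptors such as the beta-adrenergic receptors to cAMP, and Nespas is the antisense RNA of its locus. Both control regions within Gnas were shared. At chr2:174310961-174311240 the folds were 8.76 and 7.90 and the pileups 17 and 14 reads. At chr2:174312237-174312443 the folds were 6.68 and 12.4 and the pileups 18 and 22 reads. The same regions lay within 20 kb of Nespas, the nearer at 15.6 kb. At Commd1, whose protein takes part in copper handling, and at Zrsr1, a paternally expressed gene within its span, 2 of 4 control regions were shared. The region over the Commd1 promoter (chr11:22982203-22982627) had folds of 8.97 and 9.51 and pileups of 17 and 21 reads. The region upstream of Commd1 (chr11:22987310-22987612) had folds of 6.48 and 9.51 and pileups of 12 and 21 reads, the largest pileup ratio among the shared regions (1.75). The control-only regions within Commd1 (chr11:22956989-22957163 and chr11:22958084-22958219) had folds of 5.04 and 6.33 and 12 reads each, and the nearest labelled-knockout region was 25.01 and 23.96 kb away.

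Single shared regions stood beside 3 further clusters. Upstream of Blcap, the gene within whose span the paternally expressed Nnat lies, the region at chr2:157571524-157571890 had folds of 7.77 and 5.85 and pileups of 17 and 12 reads. Upstream of Plagl1, a paternally expressed zinc-finger gene, the region at chr10:13087268-13087580 had folds of 7.30 and 4.23 and pileups of 14 and 11 reads. Upstream of Dlk1, a paternally expressed membrane protein related to Notch ligands, a region 14.5 kb away (chr12:109437851-109438029) had folds of 6.82 and 8.10 and pileups of 13 and 14 reads. The maternal non-coding RNAs of this domain, Meg3, Rian and Mirg, had no region in either list. Their nearest control regions lay 103, 166 and 209.5 kb from the genes.

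In the Snrpn domain, known for the Prader-Willi and Angelman syndromes in people, both control regions were shared and both were weak. At the start of Ube3a, the ubiquitin ligase gene of Angelman syndrome, the region at chr7:59228904-59229505 had folds of 5.18 and 4.32 and pileups of 11 and 9 reads. It was the widest control region at the members, at 602 bp against a median of 228 bp over the control list. Beside Magel2 (chr7:62382519-62382662, 0.981 kb downstream) the folds were 5.42 and 5.40 and the pileups 13 and 9 reads. Snrpn itself, with the longest span among the members (468 kb), had no region in either list, and its nearest control region was 278 kb away. Ndn also had none within 20 kb, the nearest being 32.7 kb away in both lists.

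The Peg3 cluster held the strongest region that was called in the library labelled knockout alone. Peg3 is a paternally expressed zinc-finger gene, and Usp29 shares its start region and runs the other way. Within Usp29, 2 control regions were shared. That at chr7:6940855-6941046 had folds of 8.63 and 7.35 and pileups of 19 and 16 reads, and that at chr7:6937270-6937426 had 7.48 and 5.62, with 14 and 12 reads. The labelled-knockout list alone held a pair of neighbouring regions within Usp29, 18.6 and 18.998 kb from the nearest control region. The stronger (chr7:6918379-6918662) had a fold of 10.3 and 18 reads, and the weaker (chr7:6917961-6918271) had 5.94 and 10 reads. The stronger ranked 15 by fold among the 2292 labelled-knockout regions without a control region. Of all labelled-knockout regions in its bin of fold enrichment, 1.05% had no control region. In the control, the region within Peg3 (chr7:6727149-6727498) was control-only, with a fold of 5.04 and 12 reads. The nearest labelled-knockout region was 188 kb from Peg3, and Zim1 had no region within 20 kb in either list.

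No control region was shared in 3 clusters, and all 4 of their control regions stood below the median fold of the control list (6.98). Between the ends of Sgce, a sarcoglycan gene, and Peg10, a paternally expressed gene derived from a retrotransposon, the control region at chr6:4747093-4747259 had a fold of 4.31 and 9 reads. Its summit lay 5 bp from Sgce and 97 bp from Peg10, and the nearest labelled-knockout region was 189 kb away. Within Mest, a paternally expressed gene of the hydrolase family, the control region at chr6:30737055-30737190 had a fold of 4.37 and 9 reads. At the start of Copg2, a coat protein gene that overlaps Mest, the control region (chr6:30896609-30896780) had a fold of 6.33 and 12 reads. A labelled-knockout region (chr6:30896290-30896426, fold 5.94, 10 reads) lay 182 bp from it without overlap. Within Airn, the paternal non-coding RNA that silences Igf2r, each list held 1 region at a different place. The control region (chr17:12832250-12832443) had a fold of 4.38 and 8 reads, the lowest pileup of a control region at the members. The labelled-knockout region (chr17:12810523-12810841) had a fold of 7.76 and 19 reads and lay 21.4 kb from the nearest control region. Of labelled-knockout regions in its bin of fold enrichment, 8.19% had no control region. Igf2r, the maternally expressed receptor that clears Igf2, had none within 20 kb.

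At Impact, a paternally expressed gene named for its imprinting, 1 of 2 control regions was shared, and it was unlike all others. At chr18:12949189-12949419 the pileups were 49 and 52 reads, the highest at any member, while the folds were 3.46 and 3.61, the lowest at any member in both lists. The local background was 13.4 reads in the control and 13.7 in the other library, 13.4 and 16.1 times the lowest of each. Only 0.983% of control regions had a background over 10 times the lowest. The control-only region near it (chr18:12948317-12948452) had a fold of 5.41 and 10 reads. Rasgrf1, a paternally expressed activator of Ras, had its nearest region 27.5 kb away in the control and 27.6 kb in the other list.

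**Figure D3:**
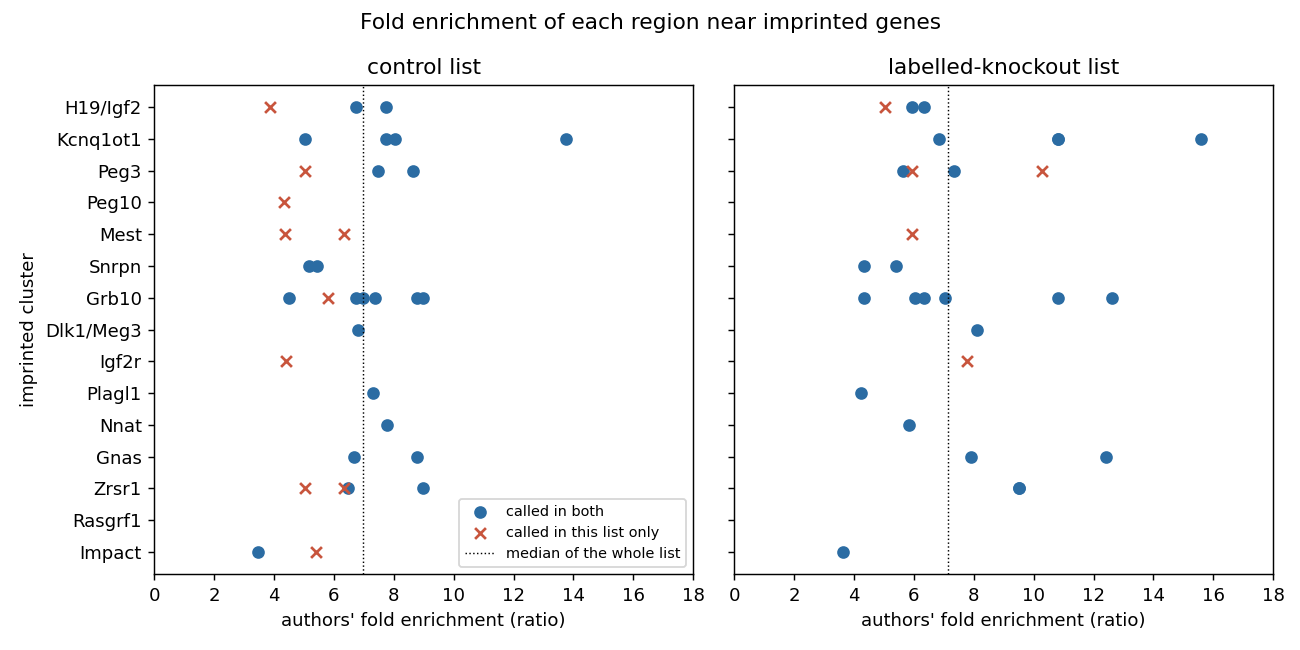
The authors' fold enrichment of every region near the members, by cluster, in the control list and in the labelled-knockout list. Filled circles were called in both lists and crosses in that list only; the dotted line is the median of the whole list (6.98 and 7.13), and all 10 control crosses lie to its left.

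Across the clusters, control-only regions had a median fold of 5.04 (range 3.87 to 6.33) and shared ones 7.33 (range 3.46 to 13.7), and 19 of the 24 shared regions were above the strongest control-only one. Over the whole control list these medians were 5.48 and 8.14. Pileups followed the same order, with 8 to 14 reads at control-only regions and 11 to 49 at shared ones. A cut at 15 reads, chosen after the data were examined, lies just above the highest control-only pileup at the members. By that choice all 13 member regions with 15 reads or more were shared. In the whole control list 90.6% of such regions were shared. With fewer than 15 reads, 11 of 21 were shared, against 43.5% of the whole list. The lowest pileup that either list holds is 6 reads, and the median of the control list is 15. The control-only regions, with 8 to 14 reads, lay between these values. Since weaker binding is not listed, absence of binding cannot be read from them. Depth was not varied here, and its part in these calls was not tested.

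At the 24 shared regions the labelled-knockout pileup divided by the control pileup had a median of 0.881 (range 0.538 to 1.75), against 0.867 over all 13984 overlapping pairs of the whole lists. It was above the ratio of the lowest backgrounds, 0.846, at 13 of 24 regions (54.2%) and at 53.2% of all pairs. The library labelled knockout had more reads than the control at 9 of the 24, fewer at 14 and as many at 1. More reads at 9 of 24 is 37.5%, against 27.7% of all pairs. Intervals are wide at this depth: the Commd1 upstream region, with 12 and 21 reads, had Poisson 95% intervals of 6.20 to 21.0 and 12.999 to 32.1. Single pairs were not tested for a difference.

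**Figure D4:**
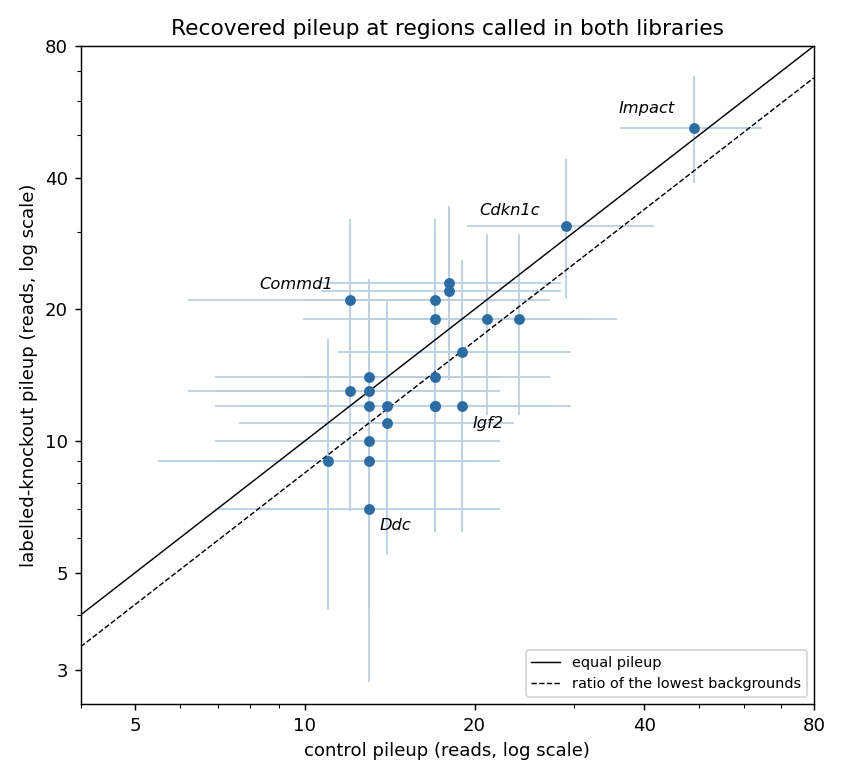
Recovered pileup in reads at the 24 regions called in both libraries, control on the horizontal and labelled knockout on the vertical axis, both on a log scale. Bars are exact Poisson 95% intervals, the solid line is equality and the dashed line the ratio of the lowest backgrounds (0.846); points lie on both sides of the dashed line, from Ddc (13 and 7 reads) to Impact (49 and 52 reads).

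The same count was made for 43 other genes known as imprinted in mouse, of which 42 were found in the gene table. With regions already counted at the members left out, they had 53 control regions, of which 40 were shared (75.5%, interval 62.4 to 85.1). Control regions in the same bins of fold enrichment were shared at 74.1%, and those of the whole control list at 69.0%. Of their 44 labelled-knockout regions, 6 had no control region (13.6%, interval 6.403 to 26.7), against 14.2% of that whole list. The strongest shared region lay 19.4 kb from Th, the tyrosine hydroxylase gene, with folds of 26.5 and 20.3. Next were regions within Inpp5f (15.1 and 5.64), Kcnk9, a potassium channel gene (14.7 and 10.1), Ppp1r9a (14.5 and 14.6), Kcnq1 (13.1 and 13.9) and Asb4 (11.5 and 6.84). The strongest control-only regions lay within Trappc9 (9.16), Phactr2 (8.76) and Kcnq1 (7.71) and 3.71 kb from Phlda2 (7.48), whose region is also near Nap1l4 and Slc22a18. Their pileups were 19, 17, 15 and 14 reads, so regions with 15 reads or more were not all shared at these genes. Kcnq1, inside which Kcnq1ot1 lies, thus held both kinds.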

How the data were processed

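CTCF ChIP-seq was done on cardiac myocytes of 3 pooled control hearts and 3 pooled CTCF_knockout hearts, per the labels' protocols. Bowtie2 2.2.6, SAMtools 0.1.19, MACS2 and the mm10 build are named in the submitters' processing notes; the sources used here do not give the MACS2 version, threshold or duplicate handling. The authors deposited 1 list of regions per ChIP library, with a fold enrichment (a ratio to local background), a −log10 p and −log10 q, a summit and a score; the files carry no header line, and the columns were read in the usual narrowPeak order. The deposited score is 10 times the −log10 q, cut to a whole number.

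All regions were used as deposited. A region belonged to a member when its summit lay within 20 kb of the gene's span in RefSeq GRCm38.p6, which gives no exons; the promoter table gave strand for 26 members. Overlap of at least 1 bp made a region shared. If fold is (pileup + 1) / (background + 1) and p the upper Poisson tail, the pileup can be solved for; a whole number fitted the deposited −log10 p of 100% of regions to 0.001. Intervals are Wilson (shares) and exact Poisson (reads), both at 95% and for counting error only. The recovery and the overlap were tested on simulated data. There was no test between genotypes. For each cluster the strongest shared region and every unshared one are named, with further shared regions; for other imprinted genes, up to 6 shared and 4 control-only. Members and lists were chosen with earlier results of these data known. The motif search within regions was not run, since only promoter sequence was used. Alternatives were other thresholds, overlap rules, windows and equal list lengths. The tools were scipy 1.17.1, pandas 2.3.3, numpy 2.4.6 and matplotlib 3.10.9 under Python 3.11.15.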

Additional observations from a re-analysis of the deposited data

How the results depend on the processing

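The share of control regions near the members that were shared, 70.6%, became 75.0% when both lists were limited to a −log10 q of 5 or more, 67.9% when limited to a fold of 5 or more, 58.8% under reciprocal overlap (50% or more), 64.7% where summits had to be 100 bp apart or less and 80.8% with lists of equal length. The whole control list moved from 69.0% to 71.6%, 71.3%, 59.8%, 65.2% and 78.5% under the same settings. The share at the members was 60.0%, 68.75% and 72.3% with windows of 2, 10 and 50 kb, and 69.2% with a pileup of at least 15 reads in both lists (62.8% of the whole list), the latter chosen after the data were examined. The share of labelled-knockout regions without a control region, 17.2%, ran from 15.4% (50 kb) to 31.0% (reciprocal overlap), where the whole list had 14.2% and 25.7%. These stayed within the counting intervals, which are wide. The numbers of regions, 34 and 29, fell to 20 and 16 with the window of 2 kb and to 13 and 12 with the pileup limit, since both settings admit fewer regions. Matching on −log10 p in place of fold gave an average of 63.8%, against 62.0%.

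With the −log10 q threshold the Snrpn and Plagl1 clusters had no shared region left, and with the fold threshold the Plagl1 and Impact clusters had none. With reciprocal overlap the Dlk1 cluster had none. With summits within 100 bp the H19 and Igf2 cluster had 1 in place of 2. The Ddc and Grb10 cluster fell from 6 shared regions to 4 under the −log10 q, fold and reciprocal settings and to 5 with summits within 100 bp. The Cdkn1c cluster fell from 4 to 3 under the −log10 q threshold. Snrpn fell from 2 to 1 under the fold and reciprocal settings. In all, 4, 4, 3 and 2 of the 15 clusters had fewer shared regions under the −log10 q, fold, reciprocal and summit settings. The stricter thresholds and overlap rules can in general only remove shared calls. No paired analysis was possible because there was a lone ChIP library for either genotype. The motif alternative was not run, since it needs sequence of the regions. With 6 reads the lowest pileup called, weaker binding at any member could not be seen.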
